A study of Mus musculus with 6 samples.

Results

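Best2, Optc, Wfdc1, Zic1, Zic2, Col9a1, Otx1 and Mia, 8 genes known from the epithelium of the ciliary body or from the matrix it lays down, were followed across 6 retina arrays of an Atrx conditional knockout study. Each was read from a probe set annotated with that gene's symbol alone, and each gene had 1 such probe set, so that 8 of the 23521 probe sets with a single symbol were taken. The 8 genes were picked with the knockout and wildtype values of these arrays in view, Best2 being among the genes with the largest falls. Their differences between genotypes are therefore given as a description with no p-value, and the count of members called in the fit over all genes stands only beside its background.

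The ciliary body is the ring of tissue between the retina and the iris. Its inner, nonpigmented epithelium is continuous with the retina, arises from the rim of the same optic cup, and together with the pigmented epithelium below it secretes the aqueous humour, while it also contributes proteins to the vitreous gel and to the fibres that hold the lens. A retina dissected whole can carry some of this epithelium at its edge, so its genes can appear in retinal RNA.

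The knockout samples were retinas of 3 male mice of genotype Chx10Cre+/-;Atrx flox/y, and the wildtype samples were retinas of 3 male Chx10Cre-/-;Atrx flox/y littermates. All mice were 17 days old, both groups carried the floxed Atrx allele, and the retinas of both eyes of a mouse were pooled after the lens had been taken out. The labels do not state whether Cre acted in ciliary epithelium. Since each knockout mouse and no wildtype mouse carried Cre, the transgene and the loss of Atrx cannot be told apart.

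The 6 arrays gave RMA log2 values for 41345 probe sets, and the median value of an array was 5.57 to 5.64. A gene counted as tested when its log2 value reached 5 on at least 3 arrays, which held for 15619 genes. Atrx had log2 values of 8.42, 8.72 and 8.33 on knockout arrays 1 to 3, against 9.04, 8.86 and 9.17 on wildtype arrays 1 to 3 (limma adjusted p = 0.115). The mean log2 value of 15 lens genes was 9.69 on knockout array 2 and 10.95 on wildtype array 1, against 5.63 to 6.003 on the other 4 arrays, and these 2 arrays are called lens-rich. Of 15 measured genes that define retinal cell classes, all passed the brightness threshold, and their mean was 9.92 to 10.01 on knockout arrays and 10.08 to 10.15 on wildtype arrays.

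Of the 8 genes, 7 passed the brightness threshold and Mia did not. In 4 of the 8 (Best2, Optc, Zic2 and Col9a1) all 3 knockout values lay below all 3 wildtype values, an arrangement found in 9.58% of the genes tested, and in the other 4 the genotypes overlapped. In limma's fit over all 15619 genes, 2 of the 7 tested members, Best2 and Optc, passed an adjusted p of 0.05, both lower in knockout, against 0.346% of all genes tested that passed in that direction and 0.48% that passed upward. Because the members were chosen on this comparison, nothing is read from either count. Over 17 alternatives Best2 was not called in 3, which were those without wildtype array 2, without wildtype array 3 and without both lens-rich arrays. Optc was not called in 12, among them each that left out a single array. The median log2 change over the 8, knockout minus wildtype, was -0.19, beside 0.0027 over all genes tested. It was -0.089 without knockout array 1. In whole tissue, fewer cells of a type and less RNA per cell cannot be told apart.

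**Figure D1:**
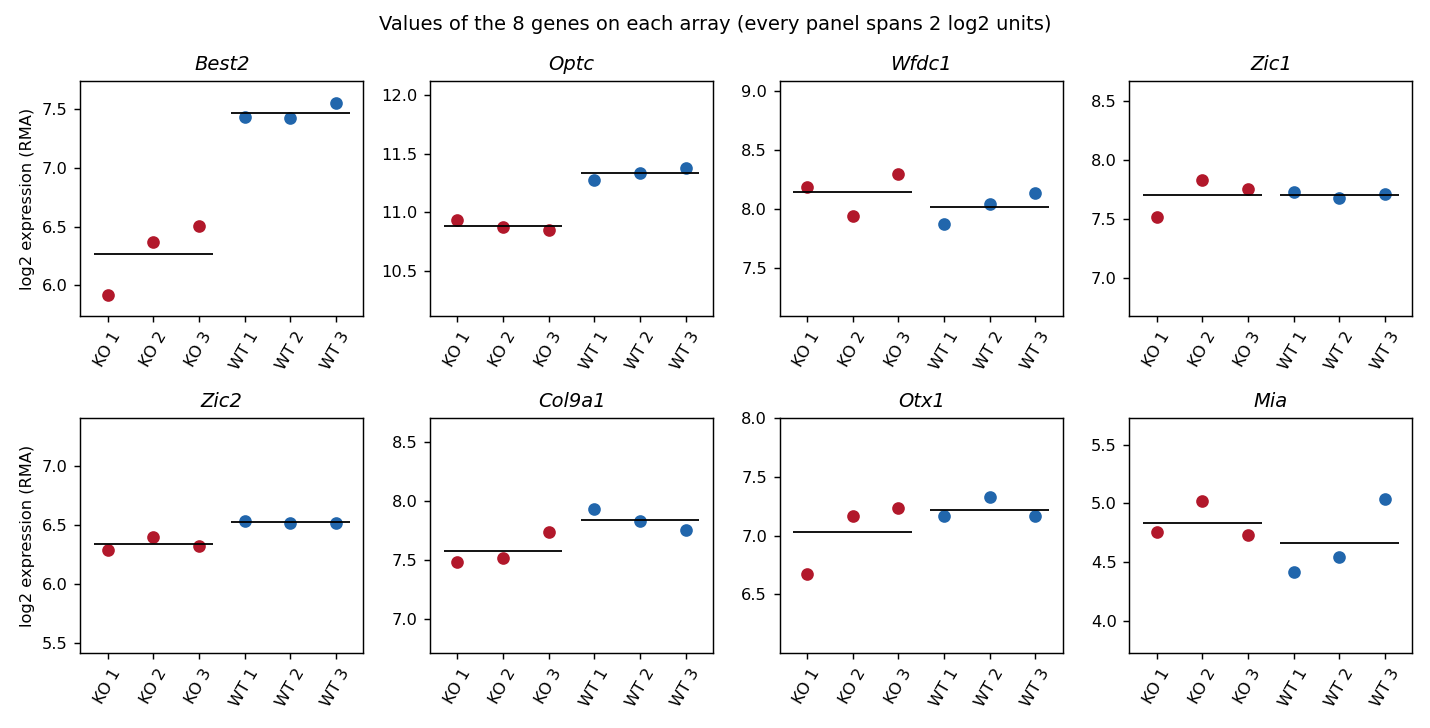
Log2 expression of each of the 8 genes on the 3 knockout (KO, red) and 3 wildtype (WT, blue) arrays; each point is 1 array and each line a group mean. Best2 and Optc show a clear gap between the genotypes, Zic2 and Col9a1 a narrow one, and the other 4 genes overlap.

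Best2 encodes bestrophin-2, an anion channel of the nonpigmented ciliary epithelium, and mice without it have a lowered pressure in the eye. Its log2 values were 5.92, 6.37 and 6.51 in knockout retina, against 7.43, 7.42 and 7.55 in wildtype retina. The 3 wildtype values lay within 0.13 of each other, the knockout values spread over 0.58, and a gap of 0.92 separated the groups. The mean was 6.27 ± 0.31 in knockout and 7.47 ± 0.071 in wildtype retina (SD, n = 3 each), a log2 change of -1.20 (SE 0.14), or 2.30-fold lower. Background signal compresses folds at such modest brightness.

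Among the members Best2 had the widest distance between genotypes. Its log2 change was -1.03 without knockout array 1, which had the lowest value, and between -1.16 and -1.32 without any other single array. It was -1.27 without both lens-rich arrays. Neither measured relative of Best2 had such a gap. Best1, which marks retinal pigment epithelium, was too dim, at log2 values of 4.70 to 4.78 in knockout and 4.62 to 4.75 in wildtype retina. Best3 had a log2 change of -0.031 (SE 0.12, limma adjusted p = 0.934).

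Optc encodes opticin, a small leucine-rich repeat protein that the nonpigmented ciliary epithelium secretes into the vitreous, where it binds collagen fibrils. It had log2 values of 10.94, 10.88 and 10.85 in knockout retina, against 11.28, 11.34 and 11.38 in wildtype retina. Both groups were tight, and the gap of 0.34 between them was wider than the range within either. The mean was 10.89 ± 0.043 in knockout and 11.33 ± 0.050 in wildtype retina (SD, n = 3 each), a log2 change of -0.44 (SE 0.073), or 1.36-fold lower. Without any single array it ran from -0.47 to -0.42.

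Col9a1 encodes a chain of collagen IX, which coats the collagen II fibrils of vitreous and cartilage. It had log2 values of 7.48, 7.52 and 7.74 in knockout retina, against 7.93, 7.83 and 7.75 in wildtype retina. The groups did not overlap, but only 0.016 separated the highest knockout array from the lowest wildtype array. The log2 change was -0.26 (SE 0.094). The gene has a long and a short transcript that start from separate promoters, and the single value of the probe set does not tell them apart.

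Optc and Col9a1 are the matrix genes of the group with promoter entries and non-overlapping values, and the 250 bases before each annotated start are shown for them (RefSeq, GRCm38.p6), 5′ to 3′ on the gene's strand. Capitals mark a match to CTTTGA, the core bound by TCF and LEF factors of Wnt signalling, which patterns the optic cup rim, on either strand. The Optc window is chr1:133908000-133908249 on the minus strand. The upstream Col9a1 window is chr1:24177360-24177609 and the downstream one chr1:24194953-24195202, both on the plus strand.
Optc: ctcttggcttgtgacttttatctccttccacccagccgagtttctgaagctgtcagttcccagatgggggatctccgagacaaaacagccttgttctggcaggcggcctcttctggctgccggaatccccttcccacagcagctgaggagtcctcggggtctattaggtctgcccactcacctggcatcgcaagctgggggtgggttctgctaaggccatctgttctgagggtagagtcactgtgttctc
Col9a1 upstream start: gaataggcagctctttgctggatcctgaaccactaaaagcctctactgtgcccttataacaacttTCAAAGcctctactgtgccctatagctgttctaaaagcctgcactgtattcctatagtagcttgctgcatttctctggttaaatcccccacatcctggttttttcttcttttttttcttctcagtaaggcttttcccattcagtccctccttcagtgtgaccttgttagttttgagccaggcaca
Col9a1 downstream start: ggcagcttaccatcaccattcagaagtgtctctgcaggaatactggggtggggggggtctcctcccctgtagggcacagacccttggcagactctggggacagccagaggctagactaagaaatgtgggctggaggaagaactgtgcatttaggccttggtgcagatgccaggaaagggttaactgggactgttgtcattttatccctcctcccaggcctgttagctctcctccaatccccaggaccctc

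The upstream Col9a1 window held 1 match to CTTTGA, in its reverse complement TCAAAG, and 13.8% of all 32851 promoter windows of this length held at least 1. Neither Col9a1 window nor the Optc window held TAATCC, a core bound by OTX factors (6.25% of all windows), or CAGCAGG, a core bound by ZIC factors (8.44%), on either strand. A match in these letters is a description of the sequence and not a binding site. Promoter entries were found for 4 of the 8 members.

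Zic1 and Zic2 encode zinc-finger transcription factors of the early nervous system that mark the optic cup rim, and Zic2 also steers the axons of a subset of ganglion cells. Zic2 had log2 values of 6.29, 6.398 and 6.32 in knockout retina, against 6.53, 6.51 and 6.52 in wildtype retina. Its groups did not overlap, and the log2 change was small, at -0.19 (SE 0.072). Zic1 had log2 values of 7.51, 7.83 and 7.76 in knockout retina, against 7.73, 7.68 and 7.71 in wildtype retina, so that the knockout arrays lay on both sides of the wildtype ones. Its log2 change was -0.0051 (SE 0.096), and it ran from -0.070 without knockout array 2 to 0.089 without knockout array 1. The SD over 3 arrays was 0.17 for knockout and 0.023 for wildtype retina.

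The chromosomal partners of these genes, Zic4 beside Zic1 and Zic5 beside Zic2, gave values in both directions. Zic4 had log2 values of 5.07, 4.95 and 5.32 in knockout retina, against 5.30, 5.27 and 5.34 in wildtype retina, and its log2 change was -0.19 (SE 0.10, limma adjusted p = 0.465), which became -0.11 without knockout array 2 and -0.30 without knockout array 3. Zic5 had log2 values of 5.81, 5.94 and 5.95 in knockout retina, against 5.77, 5.74 and 5.70 in wildtype retina, with all knockout arrays above the wildtype ones and a log2 change of 0.17 (SE 0.076, limma adjusted p = 0.389). Neither passed the test, and Zic2 and its neighbour Zic5 pointed opposite ways in value.

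Otx1 encodes a homeodomain transcription factor that mouse embryos need to form the ciliary processes. It had log2 values of 6.68, 7.17 and 7.24 in knockout retina, against 7.16, 7.32 and 7.17 in wildtype retina. Knockout array 1 stood below the other 5, which overlapped. The log2 change of -0.19 (SE 0.15) became -0.016 without that array and -0.30 without knockout array 3. Its relative Otx2, a factor of photoreceptors, bipolar cells and pigment epithelium, had log2 values of 9.73, 9.76 and 9.78 in knockout retina, against 9.50, 9.61 and 9.67 in wildtype retina, a log2 change of 0.17 (SE 0.077, limma adjusted p = 0.396).

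Wfdc1 encodes a small secreted protein with a whey acidic protein domain that is expressed at the rim of the developing retina. It had log2 values of 8.19, 7.94 and 8.30 in knockout retina, against 7.88, 8.05 and 8.14 in wildtype retina. The groups overlapped, and the log2 change of 0.12 (SE 0.11) ran from 0.045 without knockout array 3 to 0.23 without knockout array 2. Mia encodes a secreted protein of cartilage and melanoma cells. Its log2 values of 4.76, 5.02 and 4.73 in knockout retina, against 4.42, 4.55 and 5.04 in wildtype retina, reached the threshold of 5 on 2 arrays, too few for a level to be read. A probe set shared by Rab4b and Mia had log2 values of 8.52, 8.08 and 8.11 in knockout and 8.19, 8.23 and 8.09 in wildtype retina, and signal from the 2 genes cannot be told apart there. Another, shared by Mir3101, Rab4b and Mia, had 5.02, 4.99 and 5.07 in knockout and 5.08, 4.94 and 4.39 in wildtype retina, with the same limit. Otor, of the same family as Mia, had a log2 change of 0.35 (SE 0.10, limma adjusted p = 0.191), with 8.22, 8.12 and 7.93 in knockout and 7.71, 7.64 and 7.87 in wildtype retina.

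**Figure D2:**
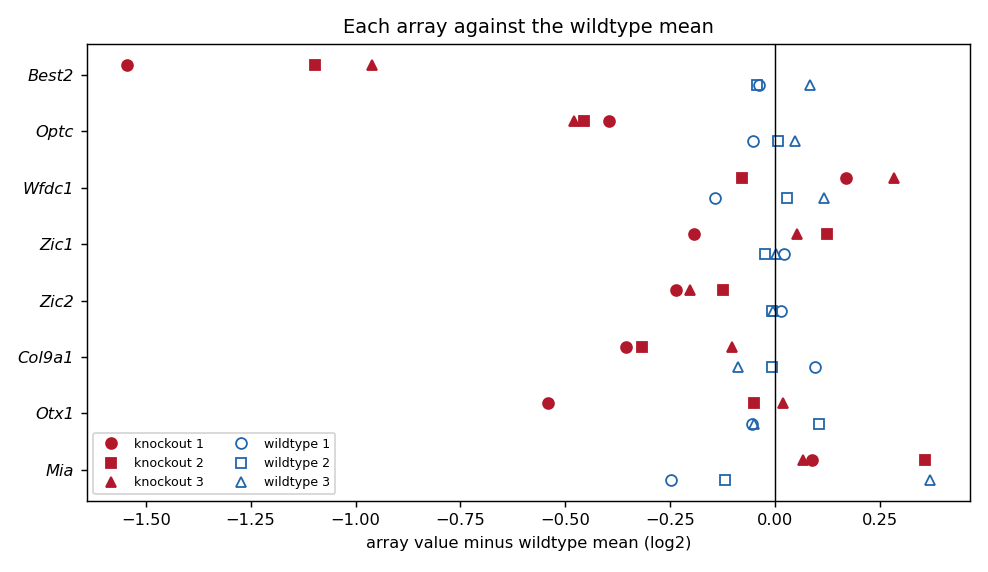
Value of each array minus the wildtype mean of the same gene (log2), with knockout arrays as filled red symbols above and wildtype arrays as open blue symbols below. Knockout array 1 has the lowest value for Best2, Zic1, Zic2, Col9a1 and Otx1, while for Optc it is the highest of the knockout arrays.

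The members varied among the knockout arrays in more than one way. Knockout array 1 was the lowest of all 6 arrays for Best2 (-1.55 from the wildtype mean on the log2 scale), Otx1 (-0.54), Col9a1 (-0.35), Zic2 (-0.24) and Zic1 (-0.19). For Optc the same array was the highest of the knockout arrays, at -0.40, against -0.46 and -0.48 on knockout arrays 2 and 3. Once each genotype's mean was taken off, the deviations of Best2 had a Pearson r of 0.94 with the mean deviation of the other 6 tested members over the 6 arrays, those of Otx1 0.85 and those of Zic1 0.72. The r was 0.47 for Col9a1, 0.33 for Zic2, -0.047 for Wfdc1 and -0.57 for Optc. These arrays share their genotype groups and their normalization, and the values are a description.

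Knockout array 1 also held the lowest levels of several tissues that adjoin the ciliary epithelium. The mean of 9 melanin genes, shared by retinal, ciliary and iris pigment epithelium, was 7.30 there, 8.77 and 8.63 on knockout arrays 2 and 3, and 8.40 to 8.82 on the wildtype arrays. Dct, an enzyme of melanin synthesis, had log2 values of 9.87, 11.46 and 11.41 in knockout retina, against 11.18, 11.65 and 11.19 in wildtype retina. The smooth muscle list, 8 genes of ciliary, iris and vessel muscle, averaged 6.41 on knockout array 1, 6.95 and 7.15 on the other knockout arrays and 7.02 to 7.29 on wildtype arrays. The fibroblast list averaged 6.98 on knockout array 1, 7.75 and 7.66 on knockout arrays 2 and 3, and 7.52 to 7.78 on wildtype arrays. Dcn, which encodes the matrix proteoglycan decorin, had a log2 value of 7.74 on that array, against 9.84 and 9.76 on knockout arrays 2 and 3 and 9.45 to 9.92 on the wildtype arrays. Fbln1 of the fibroblast list had 7.77, 8.20 and 8.10 in knockout retina, against 8.40, 8.50 and 8.44 in wildtype retina. Rab38 of the melanin list had 6.22, 6.960 and 6.87 in knockout retina, against 7.02, 7.185 and 6.965 in wildtype retina. In both, all knockout values lay below the wildtype values. That held for 1 of 9 melanin and 1 of 6 fibroblast genes tested, beside 9.58% of all genes tested.

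On knockout arrays 2 and 3 the melanin means of 8.77 and 8.63 lay between the lowest and the highest wildtype arrays. The smooth muscle mean was 6.95 on knockout array 2, below the lowest wildtype mean of 7.02. It was 7.15 on knockout array 3, within the wildtype range. On the same arrays Best2 stood at 6.37 and 6.51, against 7.42 to 7.55 in wildtype retina, and Optc at 10.88 and 10.85, against 11.28 to 11.38 in wildtype retina. The 11 measured genes of retinal pigment epithelium averaged 7.86, 7.90 and 8.33 in knockout retina, against 7.64, 8.42 and 8.16 in wildtype retina, and the lowest of these 6 means was in wildtype. The part of these other tissues in the values of the 8 members, Best2 and Optc included, was not tested.

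**Figure D3:**
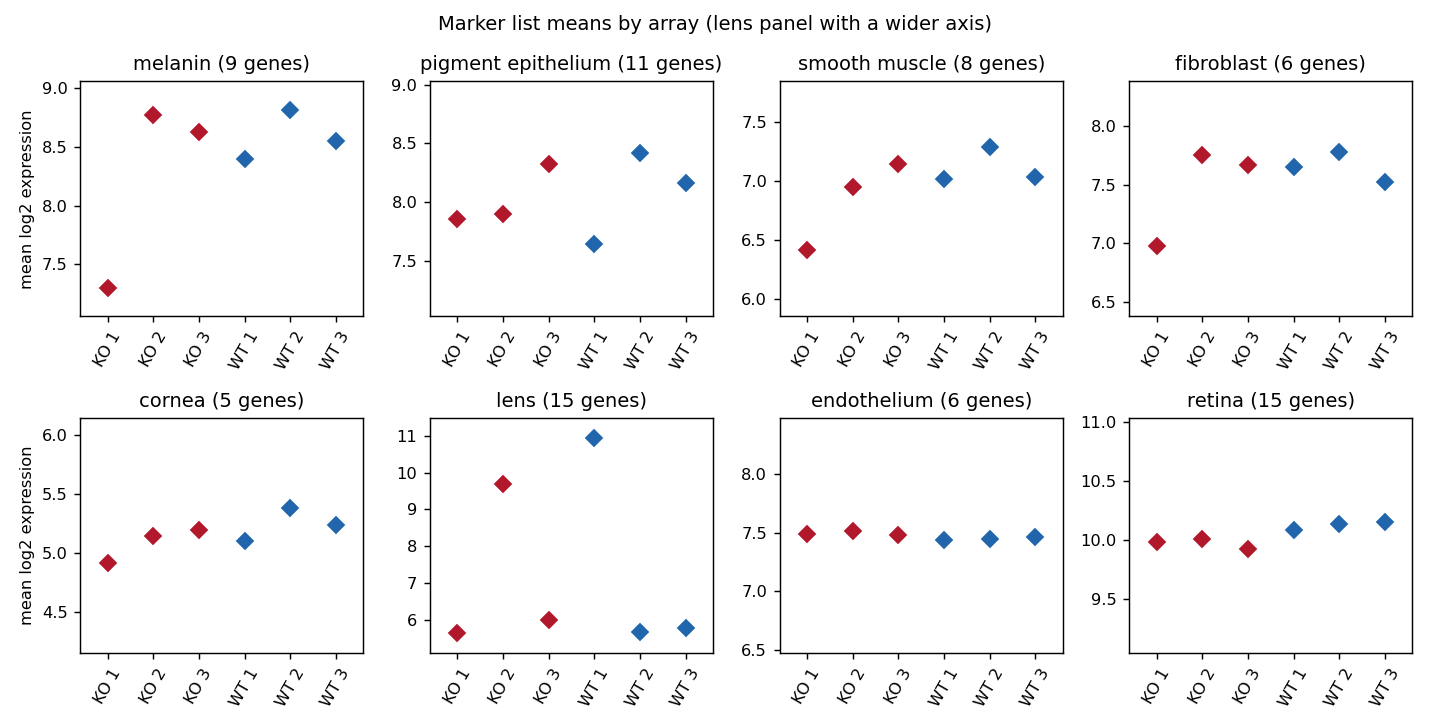
Mean log2 expression of 8 marker lists on the knockout (red) and wildtype (blue) arrays, each point 1 array; the lens panel has a wider axis. Knockout array 1 is lowest for the melanin, smooth muscle, fibroblast and cornea lists, and knockout array 2 and wildtype array 1 are high for lens genes.

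In limma's fit no gene of these marker lists passed the threshold between genotypes, beside 0.826% of all genes tested. This held for 9 melanin, 10 pigment epithelium, 14 lens, 8 smooth muscle, 2 cornea, 6 fibroblast, 6 endothelium and 15 retina genes tested, among which 0, 0, 0, 1, 0, 1, 0 and 5 had an unadjusted p under 0.05, beside 13.5% of all genes tested. Of the retina list, Onecut1 was at -0.38 (limma adjusted p = 0.055) and Tfap2b at -0.52 (limma adjusted p = 0.104). Opn1sw was at -0.32 (limma adjusted p = 0.159) and Prkca at -0.38 (limma adjusted p = 0.232). In all 4 the knockout values lay below the wildtype values, and 1 of the 15 retina genes had a log2 change above 0. The lens-rich arrays did not stand apart for Best2, which was 6.37 on lens-rich knockout array 2, between the other knockout arrays, and 7.43 on lens-rich wildtype array 1, within 0.13 of the other wildtype arrays. Without both lens-rich arrays the log2 change of Best2 went from -1.20 to -1.27, and Best2 was no longer called. In the same setting Col9a1 went from -0.26 to -0.18, Otx1 from -0.19 to -0.29 and Mia from 0.17 to -0.048. On the same arrays Optc was at -0.46, Zic2 at -0.21, Zic1 at -0.059 and Wfdc1 at 0.15.

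Other genes of ciliary tissue were taken for their roles, as 4 lists of 61 genes, of which 50 were tested. The lists were chosen with earlier results of these data known, so their counts are a description. Another 4 were below the brightness threshold, and 7 without a single-symbol probe set are not analysed here. None of the 50 passed limma's threshold over all genes, beside 0.826% of all genes in either direction. An unadjusted p under 0.05 was found for 13 of the 50, a larger share than the 13.5% of all genes tested. The log2 change was below 0 for 38 and above 0 for 12, with a median of -0.12, beside 0.0027 over all genes tested. In each list the mean of the measured genes was lowest on knockout array 1. It was 6.77 there for rim regulators, 8.66 for aqueous secretion, 6.41 for vitreous matrix and 6.31 for zonule. Knockout arrays 2 and 3 lay within the wildtype range for aqueous secretion (8.90 and 8.93, against 8.80 to 8.95). Array 3 also did for vitreous matrix (6.59, against 6.57 to 6.71). For rim regulators and zonule all knockout means lay below the wildtype ones. In 10 of the 50 all knockout values lay below the wildtype values, and in 1 all lay above, beside 9.58% and 10.7% of all genes tested. The log2 change was also below 0 for 14 of 15 tested retina genes (median -0.092) and 8 of 8 smooth muscle genes (median -0.25). The same held for 8 of 9 melanin genes (median -0.39) and 12 of 14 lens genes (median -0.37). The medians were -0.29 for 2 cornea, -0.084 for 6 fibroblast, -0.015 for 10 pigment epithelium and 0.067 for 6 endothelium genes. In 6 of the 15 retina genes all knockout values lay below the wildtype values. The part of these tissues in the values of the 50 genes was not tested.

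Vitreous matrix genes had a median log2 change of -0.14, with 11 of 12 tested below 0. Fmod, which encodes fibromodulin, a leucine-rich repeat protein related to opticin, lies on the chromosome next after Prelp, the neighbour of Optc. It had log2 values of 7.44, 7.58 and 7.61 in knockout retina, against 7.95, 7.95 and 7.88 in wildtype retina. The groups did not overlap, and the log2 change of -0.39 (SE 0.078) missed the threshold (limma adjusted p = 0.080, and 0.031 to 0.322 over the alternatives). Vcan, the proteoglycan versican, had a log2 change of -0.29 (SE 0.079, limma adjusted p = 0.165). Col9a2, a partner chain of Col9a1 in collagen IX, was at -0.30 (SE 0.12, limma adjusted p = 0.353), with 7.51, 7.30 and 7.80 in knockout and 7.88, 7.87 and 7.75 in wildtype retina. Knockout array 3 overlapped the wildtype range for Col9a2, and for Col9a1 it was the highest knockout array. The log2 change of Col9a2 was -0.18 without knockout array 2 and -0.16 without both lens-rich arrays. The third chain, Col9a3, was at -0.11 (SE 0.16) and Col2a1, the main vitreous collagen, at -0.0015 (SE 0.12).

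The zonule list, proteins of the fibrillin fibres that suspend the lens, had 10 of 12 tested genes below 0 and a median of -0.11. Loxl1, a lysyl oxidase relative that cross-links elastic fibres, had log2 values of 7.03, 7.31 and 7.30 in knockout retina, against 7.68, 7.50 and 7.56 in wildtype retina. Its groups did not overlap, and its log2 change was -0.37 (SE 0.099, limma adjusted p = 0.162). Fbn2, which encodes fibrillin-2, was at -0.32 (SE 0.10, limma adjusted p = 0.225), Adamtsl4 at -0.30 (SE 0.11, limma adjusted p = 0.283) and Thsd4 at -0.22 (SE 0.083, limma adjusted p = 0.304). In all 4 the knockout values lay below the wildtype values, and Adamtsl4 was at -0.18 without both lens-rich arrays.

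Regulators of the optic cup rim had 9 of 13 tested genes below 0 and a median of -0.12. Axin2, a target and brake of Wnt signalling, had log2 values of 6.59, 6.71 and 6.75 in knockout retina, against 7.05, 6.98 and 6.96 in wildtype retina. These did not overlap, and the log2 change of -0.31 (SE 0.078) did not pass the threshold (limma adjusted p = 0.139). These values are of the brighter of 2 probe sets, and the other had a log2 change of 0.039. With the mean of both, the log2 change of Axin2 was -0.14 (limma adjusted p = 0.625). Wnt2b, a Wnt ligand of the rim, was at -0.44 (SE 0.17, limma adjusted p = 0.318), with values of 5.91, 6.28 and 6.09 in knockout and 6.21, 6.49 and 6.90 in wildtype retina that overlapped. Its log2 change was -0.26 without wildtype array 3, which was the highest, and -0.70 without both lens-rich arrays. Gas1, a membrane protein that modulates hedgehog signalling, was at -0.30 (SE 0.11, limma adjusted p = 0.292).

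The aqueous secretion list held transporters and enzymes, many of which retinal neurons and glia also express. Of 13 tested, 8 were below 0 and 5 above, with a median of -0.089. Aqp4, a water channel of Muller glia as well as ciliary epithelium, had log2 values of 9.16, 9.21 and 8.89 in knockout retina, against 8.74, 8.80 and 8.91 in wildtype retina, a log2 change of 0.27 (SE 0.10, limma adjusted p = 0.308), which became 0.17 without both lens-rich arrays. The carbonic anhydrase Car4 was at 0.27 (SE 0.15) and the sodium, potassium and chloride cotransporter Slc12a2 at 0.17 (SE 0.084). Car4 ran from 0.14 without knockout array 3 to 0.42 without knockout array 2, and Slc12a2 was at 0.11 without knockout array 2 and 0.10 without both lens-rich arrays. Atp1b3, a subunit of the sodium pump, was at -0.23 (SE 0.083, limma adjusted p = 0.294). None passed the test, and single genes of this list pointed both ways in value.

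**Figure D4:**
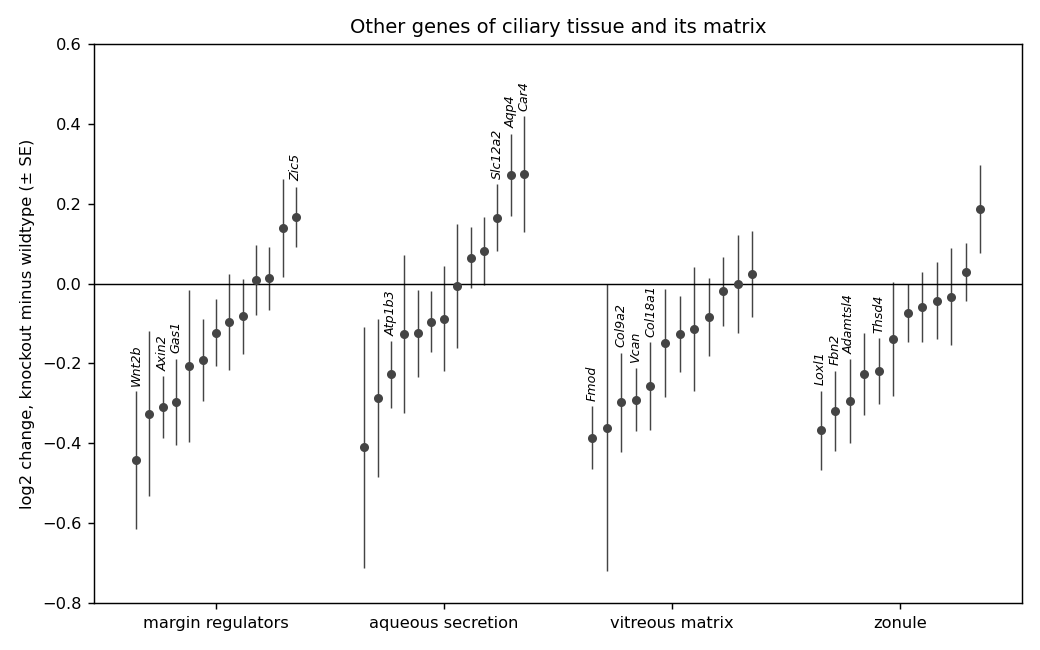
Log2 change (knockout minus wildtype) with its standard error for the tested genes of 4 lists of ciliary tissue and matrix, ordered by size within each list; the 4 genes of each list with the smallest unadjusted p are named. More values lie below 0 than above 0 in each of the 4 lists, and none of the 50 passed the threshold.

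The nearest protein-coding neighbours of the members were examined too, a choice made after the values were seen. Beside Optc, Atp2b4, a calcium pump of the plasma membrane, had log2 values of 7.46, 7.62 and 7.40 in knockout retina, against 7.99, 8.002 and 7.95 in wildtype retina. It fell by 0.49 on the log2 scale (SE 0.082, limma adjusted p = 0.043, and 0.012 to 0.215 over the alternatives). It passed the threshold with knockout array 2 left out, and with any other single array left out it did not. Prelp, on the other side of Optc and of the same protein family, was at -0.13 (SE 0.095, limma adjusted p = 0.602), which became -0.037 without knockout array 1 and -0.20 without knockout array 2. The neighbours of Best2, Hook2 and Get3, were at -0.10 (SE 0.10) and -0.012 (SE 0.083). Kcng4 beside Wfdc1 was at 0.11, Tbc1d2b beside Zic1 at -0.088 and Pcca beside Zic2 at -0.0050. Fam135a and Col19a1 beside Col9a1 were at 0.12 and -0.14, and Wdpcp and Ehbp1 beside Otx1 at 0.18 and -0.19. Atp2c2, Rab4b and Snrpa were not tested. Of the neighbours tested, Zic4 and Zic5 included, Atp2b4 alone passed the threshold, beside 0.826% of all genes tested.

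Genes tested outside the members were ranked by likeness to the mean of the 7 tested members, with predicted or unnamed loci and small RNAs left out. Over the 6 arrays the most alike were Zfyve21 (Pearson r = 0.998), Foxc2 (0.991), Cyp26a1 (0.987), Platr20 (0.987) and Tbc1d9b (0.985). Zfyve21, a protein of focal adhesions, had log2 values of 6.93, 7.13 and 7.23 in knockout retina, against 7.40, 7.44 and 7.47 in wildtype retina. Foxc2, a forkhead factor of the mesenchyme around the eye, and Cyp26a1, which degrades retinoic acid, lay near the brightness threshold, at 4.82 to 5.04 and 4.77 to 4.98 in knockout and 5.13 to 5.21 and 5.12 to 5.21 in wildtype retina. Cyp26a1 reached the threshold on its wildtype arrays alone. None of these 5 passed the test between genotypes. The members were chosen on this comparison, and Best2 has the largest difference in their mean. A high r here therefore largely follows the difference between genotypes, and the ranking is a description.

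A second ranking was made after the genotype means were taken off, among genes whose deviations had an SD of at least 0.3. With the same loci left out, the most alike were Met (r = 0.980 over 6 arrays), Tst (0.978), Zfp972 (0.970), H2-Aa (0.957) and Unc93a2 (0.946). Met, the receptor of hepatocyte growth factor, had log2 values of 6.42, 7.004 and 7.30 in knockout retina, against 6.90, 7.19 and 7.18 in wildtype retina. Tst, the mitochondrial enzyme rhodanese, had 6.67, 7.27 and 7.49 in knockout and 7.26, 7.47 and 7.34 in wildtype retina. All 5 were lowest on knockout array 1 among the knockout arrays, as Best2 and Otx1 were. The genes were picked for high r, which is a description of these 6 arrays.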

How the data were processed

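Each probe set has a deposited log2 value. Per the submitters' processing notes the authors used RMA, on arrays hybridized with cDNA of 100 ng of total RNA per the labels' protocols. No label or header names the version of RMA or a genome build. RMA normalizes arrays by quantiles, so a shift in total RNA would not be seen.

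Genes were named from probe sets with exactly 1 symbol in the platform annotation, and a gene with several was represented by the brightest over all 6 arrays. Genotypes were compared by lmFit and eBayes of limma 3.58.1 (2-sided, R 4.3.3), with Benjamini-Hochberg adjustment over 15619 genes, a procedure tested on simulated data. SE is limma's moderated standard error (median 0.095), and the number of arrays limits the precision. Each replicate is the retinas of 1 mouse, per the labels.

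The members and lists were chosen with earlier results of these data known. Named genes are Atrx, the members, up to 4 genes of each list with the smallest unadjusted p, and 5 genes for each of 2 measures of likeness. Best1, Best3, Col9a3, Col2a1 and the neighbours were named after their values were seen. Neighbours and promoter windows come from RefSeq, GRCm38.p6. Alternatives changed the filter, normalization, spread model, weights, block, probe set rule, covariates and arrays. Figures were drawn with matplotlib 3.10.9.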

Additional observations from a re-analysis of the deposited data

How the results depend on the processing

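Over 17 alternatives the log2 changes of Best2 (-1.32 to -1.03), Optc (-0.47 to -0.42), Zic2 (-0.22 to -0.16) and Col9a1 (-0.34 to -0.18) kept their sign, which was fixed for these 4 wherever arrays were only left out, because their genotypes do not overlap. Zic1 ran from -0.070 to 0.089. The median over the 8 members ran from -0.24 to -0.089. Of 7 tested members, 1 (Best2) rather than 2 passed the threshold with no filter on dim probe sets, with arrays centred on their median, with a lens or a pigment epithelium list mean as covariate and with the replicate block, none without both lens-rich arrays, and 0 to 1 without any single array. Best2 was not called without wildtype array 2 or 3. The count over all genes, 129, became 74 with no filter, 209 with a log2 floor of 6, 282 with an intensity trend and robust spread, 36 without both lens-rich arrays and 25 to 141 without any single array. Of the further ciliary genes, 1 (Fmod) rather than none passed with a floor of 6 and with the trend. With the replicate block 68 genes were called. Same-numbered arrays of the genotypes had deviations that correlated at -0.27, -0.38 and -0.058 across genes. The highest correlation, 0.39, was between knockout array 2 and wildtype array 1, which are the lens-rich arrays. Lens content enters these correlations, so they cannot settle whether the numbers pair the arrays. The call of Atrx was gained with the trend (limma adjusted p = 0.039), and over the 17 alternatives it ran from 0.039 to 0.320. Where fewer arrays enter, the fit has less information, yet leaving out 1 array gave from 25 called genes (wildtype array 2) to 141 (knockout array 2). The cause of these and the other shifts was not tested. Values near the log2 floor of 5, as for Mia, Zic4 and Foxc2, are limited by background signal.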
